A study of Homo sapiens with 4 samples.

Results

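The genes described here are 10 regulators of the step from G1 into S phase, taken by gene symbol from the 58302 genes of each library: the D-type and E-type cyclins *CCND1*, *CCND3*, *CCNE1* and *CCNE2*, the CDK inhibitors *CDKN1B* and *CDKN2C*, the pocket protein genes *RB1*, *RBL1* and *RBL2*, and *CCNG2*. The rule uses the symbols and no measured value, but the symbols were chosen with earlier results of these data known. Every symbol matched exactly 1 gene. The cells were HepG2, an established line from a human hepatocellular carcinoma with a wild-type genotype by the labels, grown in MEM with serum and treated with melatonin at 1 mM or with DMSO for 24 h or 48 h. Melatonin is the indole hormone of the pineal gland, and DMSO is the agent given to the control cultures. The study asked how gene expression and alternative splicing in this line differ with melatonin, and it reported growth inhibition of HepG2 at 1 mM. For each of the 4 conditions mRNA of 1 library was sequenced. Without replicates the variation among cultures is unknown, and no p-value is given.

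G1 cyclins are the regulatory subunits that switch on the cyclin-dependent kinases before DNA replication. D-type cyclins with CDK4 or CDK6, and then E-type cyclins with CDK2, phosphorylate the pocket proteins, which otherwise hold E2F transcription factors in a repressive state, and *CCNE1* and *RBL1* are themselves among the textbook targets of E2F. The inhibitors work at different points: p18, the product of *CDKN2C*, binds CDK4 and CDK6, whereas p27, the product of *CDKN1B*, binds cyclin E with CDK2. Cyclin G2, the product of *CCNG2*, is an unconventional cyclin that is known as a FOXO target and is linked to quiescence rather than to S phase entry. In the adult liver most hepatocytes rest outside the cell cycle, and hepatoma lines such as HepG2 divide continuously in culture.

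Levels are FPKM, fragment counts per unit of gene length and of library size. They may be compared between genes of a library, whereas comparisons between libraries depend on how the library size is set. FPKM summed over all genes to 479234 and 424724 at 24 h and to 337663 and 350770 at 48 h, with DMSO and melatonin. The reads behind each FPKM were recovered from the gene length, with 21616676 to 23086025 reads on genes per library. The library sizes implied by the FPKM, 18357838 to 22205042, were smaller than the reads on genes in every library. Error is given as a 95% exact interval of those reads, which covers counting error only. A gene of 1 kb with 3 reads, the floor used here, had an FPKM of 0.135 to 0.163. The share of mitochondrial genes was 20.0% in the DMSO library and 16.6% in the melatonin library of 24 h, then 9.77% and 11.9% in those of 48 h, and how far this share moves the levels of other genes was not tested beyond the rescalings given beside the results. Rescaling to TPM moved the median log2 fold change of all tested genes from 0.02 to 0.19 for melatonin over DMSO at 24 h, from -0.02 to -0.07 at 48 h, from 0.00 to 0.47 for 48 h over 24 h with DMSO, and from -0.04 to 0.21 for 48 h over 24 h with melatonin, so the comparisons over time depend most on the scale. For the hepatocyte label, the 8 markers of that list were detected in every library, with *ALB* at 2717 to 3343 FPKM. At 48 h 3 of these 8 had a ratio interval above 1 with melatonin and 5 below, beside 29.1% and 33.1% of all tested genes. *TTR*, for transthyretin, had 50.6 FPKM with DMSO and 256 with melatonin, *AFP*, for alpha-fetoprotein, 1902 and 782, and *TF*, for transferrin, 740 and 388. Their part in the differences of the members was not tested. Of 7 markers of blood, endothelial and mesenchymal cells, *CD3E*, *COL3A1* and *DCN* had 0 reads in every library, *PTPRC* had 0 to 1 and *PECAM1* had 64 to 162, and no marker of this list reached an FPKM of 1.

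At 48 h the melatonin library held more mRNA of cyclin E1, of p18 and of the pocket protein p107 than the DMSO library, by 2.46-fold for *CCNE1*, 2.28-fold for *CDKN2C* and 1.94-fold for *RBL1*. *CDKN1B* and *CCND1* were lower with melatonin, at 0.816 and 0.881 of the DMSO level, and *RBL2* differed by less than its counting error on the deposited scale. At 24 h the differences of *CCNE1*, *CDKN2C* and *RBL1* were smaller, and the largest ratio among the members was *CCNE1* at 1.47-fold. In the DMSO cultures over time, *CDKN2C*, *RBL1* and *CCNE1* were at 0.300, 0.471 and 0.650 of their 24 h level at 48 h, though the interval of *CCNE1* held 1 after rescaling to TPM. All 4 comparisons share libraries in pairs, so they are not independent of each other. In bulk RNA, fewer cells that express a gene and less of its mRNA per cell cannot be told apart.

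**Figure D1:**
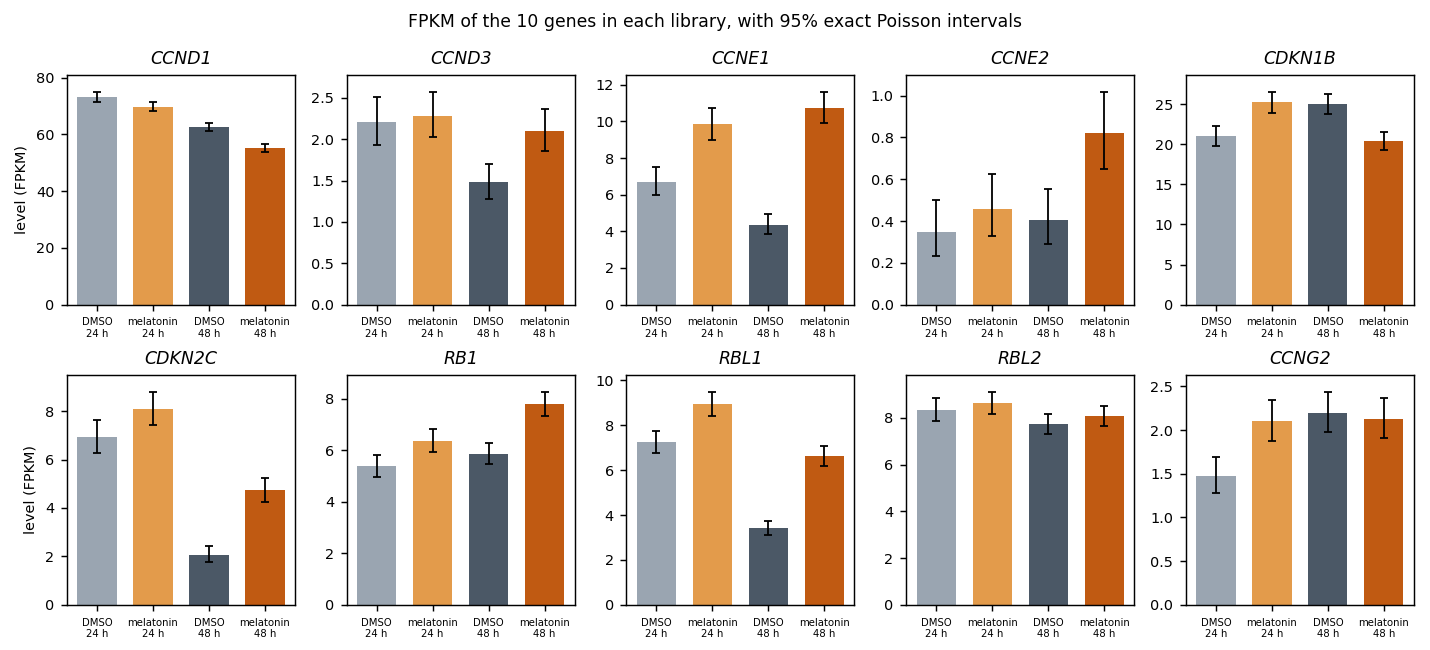
Bars give the FPKM of each of the 10 genes in the 4 libraries, each panel on its own linear axis from 0, and error bars are 95% exact Poisson intervals of the reads. *CCNE1*, *CDKN2C*, *RBL1* and *CCND3* share their lowest bar in the DMSO 48 h library, at 4.36, 2.08, 3.41 and 1.48 FPKM, whereas the intervals of the 4 bars of *RBL2* overlap.

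The promoters of *CCNE1*, *CDKN2C* and *RBL1*, the tested members with the largest differences at 48 h, are shown to compare which of them carry the letters of an E2F site. Each window runs from 250 bases before the RefSeq start to 50 bases after it, on GRCh38.p14, 5′ to 3′ along the gene, so that it covers upstream sequence and the beginning of the first exon. *RBL1* lies at chr20:37095948-37096247 on the minus strand, *CCNE1* at chr19:29811741-29812040 on the plus strand and *CDKN2C* at chr1:50960495-50960794 on the plus strand. Capitals mark the letters TTTCGCGC or TTTGGCGC, both common forms of that site, searched on both strands.
RBL1: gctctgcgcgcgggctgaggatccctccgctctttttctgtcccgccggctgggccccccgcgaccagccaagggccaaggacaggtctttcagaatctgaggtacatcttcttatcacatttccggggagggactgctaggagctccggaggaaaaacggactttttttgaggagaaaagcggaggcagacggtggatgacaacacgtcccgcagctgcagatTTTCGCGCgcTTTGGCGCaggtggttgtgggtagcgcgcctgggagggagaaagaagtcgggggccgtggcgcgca
CCNE1: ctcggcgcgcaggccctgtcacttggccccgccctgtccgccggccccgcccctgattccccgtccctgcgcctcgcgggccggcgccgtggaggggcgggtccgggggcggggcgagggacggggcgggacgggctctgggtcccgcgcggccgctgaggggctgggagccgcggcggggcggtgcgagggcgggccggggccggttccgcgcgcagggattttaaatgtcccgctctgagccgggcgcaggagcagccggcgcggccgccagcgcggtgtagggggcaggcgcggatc
CDKN2C: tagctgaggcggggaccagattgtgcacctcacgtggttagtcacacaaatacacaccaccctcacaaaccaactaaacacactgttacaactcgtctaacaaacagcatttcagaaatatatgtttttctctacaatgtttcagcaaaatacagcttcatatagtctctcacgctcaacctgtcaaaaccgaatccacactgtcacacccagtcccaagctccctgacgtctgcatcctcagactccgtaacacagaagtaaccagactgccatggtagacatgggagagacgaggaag

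*RBL1* held both forms on the strand of the gene, without overlap, with the first letter 26 and 16 bases before the start. Of all 34943 windows of this length in the RefSeq table, 1.14% held either form, and of the 13 windows that matched 8 of the 10 members only that of *RBL1* did. With the added letters TTTCCCGC and TTTGCCGC, a choice made after seeing the data, 3.30% of all windows and again 1 member window had a match. The RefSeq table holds 1 window each for *RBL1* and *CCNE1* and 3 for *CDKN2C*, of which the one printed begins farthest upstream. *CCNE1* and *CDKN2C* had no match in any of theirs, which says only that those letters are not there. The windows printed differ in composition, with a GC content of 81% and 47 CpG in *CCNE1*, 61.3% and 25 CpG in *RBL1* and 46.3% and 8 CpG in *CDKN2C*, against a median of 58.7% and 14 CpG over all windows. The other windows of *CDKN2C* had 71.3% with 37 CpG and 49.3% with 11, so the low GC content holds for the one printed and not for every start of that gene. *RB1* had 1 window only, with 38.3% and 0 CpG. Other starts of *RB1* were not searched, so the lack of a match there holds for this window alone. The letters TTTGAA, the cell cycle genes homology region, occurred in 15.2% of all windows and in 1 of *RBL2*, 25 bases after the start. The FOXO letters TGTTTAC occurred in 3.42% and in 1 of *CCND3*, and the window of *CCNG2* had none.

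*CCND1*, which encodes cyclin D1 (ENSG00000110092, hg38 chromosome 11, 69641087 to 69654474), was the most abundant member in every library. Its level was 73.3 FPKM with DMSO at 24 h against 69.8 with melatonin, and 62.5 and 55.1 at 48 h, on 5908 to 6838 reads. None of the 4 intervals overlapped, and the order fell from DMSO 24 h to melatonin 48 h. The ratio of melatonin to DMSO was 0.952 (0.920 to 0.985) at 24 h and 0.881 (0.850 to 0.912) at 48 h, differences of 4.77% and 11.9% of the DMSO level. The direction at 24 h is a matter of scale, since the log2 fold change of -0.07 became 0.10 after rescaling to TPM, and its interval held 1 with the sum of reads as library size. With time, *CCND1* was lower at 48 h with DMSO (ratio 0.853) and with melatonin (0.789), but rescaling to TPM reversed the DMSO value from -0.23 to 0.27 on the log2 scale. *ORAOV1*, a gene on the opposite strand that overlaps *CCND1*, had 274 to 675 reads, and because the strand of counting is not stated, reads of such a pair cannot be told apart.

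*CCND3*, for cyclin D3 (ENSG00000112576, chromosome 6, 41934933 to 42050357, minus strand), was low, at 2.21 and 2.29 FPKM with DMSO and melatonin at 24 h and 1.48 and 2.10 at 48 h. On the deposited scale the DMSO 48 h library stood below the other libraries, which overlapped. Between the DMSO libraries the ratio of 48 h to 24 h was 0.670 (0.550 to 0.815), but on the TPM scale its interval held 1. At 48 h melatonin over DMSO was 1.42 (1.18 to 1.72) on 271 and 188 reads, and at 24 h, at 1.04 (0.866 to 1.24), it did not differ beyond counting error. Cyclin D1 mRNA made up 95.9% to 97.2% of the summed FPKM of the D cyclins, *CCND3* 2.30% to 3.66% and *CCND2*, which stayed below an FPKM of 1, 0.181% to 0.525%. The sum itself was 75.8 and 72.2 FPKM at 24 h and 64.4 and 57.4 at 48 h, in the order DMSO, melatonin.

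*CCNE1*, for cyclin E1 (ENSG00000105173, chromosome 19, 29811898 to 29824308), had 6.71 FPKM with DMSO at 24 h against 9.84 with melatonin, and 4.36 and 10.7 at 48 h. Both melatonin libraries were above both DMSO libraries and overlapped each other, and the lowest value was that of DMSO at 48 h. The ratio of melatonin to DMSO was 1.47 (1.27 to 1.69) at 24 h, on 509 and 314 reads, and 2.46 (2.12 to 2.87) at 48 h, on 608 and 244 reads. The 48 h difference of 1.13 on the log2(FPKM + 1) scale made *CCNE1* the only tested member past the 2-fold threshold between melatonin and DMSO. By the ratio of FPKM alone, *CDKN2C* at 2.28 was past 2-fold too, as was *CCNE2* at 2.03, which fell below the filter. At 48 h, 1.54% of all tested genes had a larger rise than *CCNE1*, and at 24 h 5.82% had. Over time its ratio was 0.650 (0.548 to 0.771) in the DMSO cultures and 1.09 (0.968 to 1.23) in those with melatonin, and rescaling to TPM raised both, so that the first held 1 and the second did not. No other gene of the files overlaps *CCNE1*.

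*CCNE2* (ENSG00000175305), the second E-type cyclin, stayed below an FPKM of 1 in every library and so was not tested. It had 0.347 and 0.460 FPKM with DMSO and melatonin at 24 h, and 0.404 and 0.819 at 48 h, on 28, 41, 39 and 80 reads. The melatonin 48 h library was above the other three, which overlapped. Its ratio at 48 h was 2.03 (1.37 to 3.05), in the direction of *CCNE1*, and at 24 h 1.33 (0.800 to 2.23), which holds 1. It overlaps *INTS8* and *NDUFAF6* on the opposite strand, which had 286 to 627 reads, more than *CCNE2* itself. *CCNE1* made up 91.5% to 95.5% of the summed E cyclin FPKM, and that sum was 7.05 and 10.3 at 24 h and 4.77 and 11.6 at 48 h with DMSO and melatonin. The level of *CCND1* over *CCNE1* was 10.9 and 7.09 at 24 h and 14.3 and 5.13 at 48 h in the same order.

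**Figure D2:**
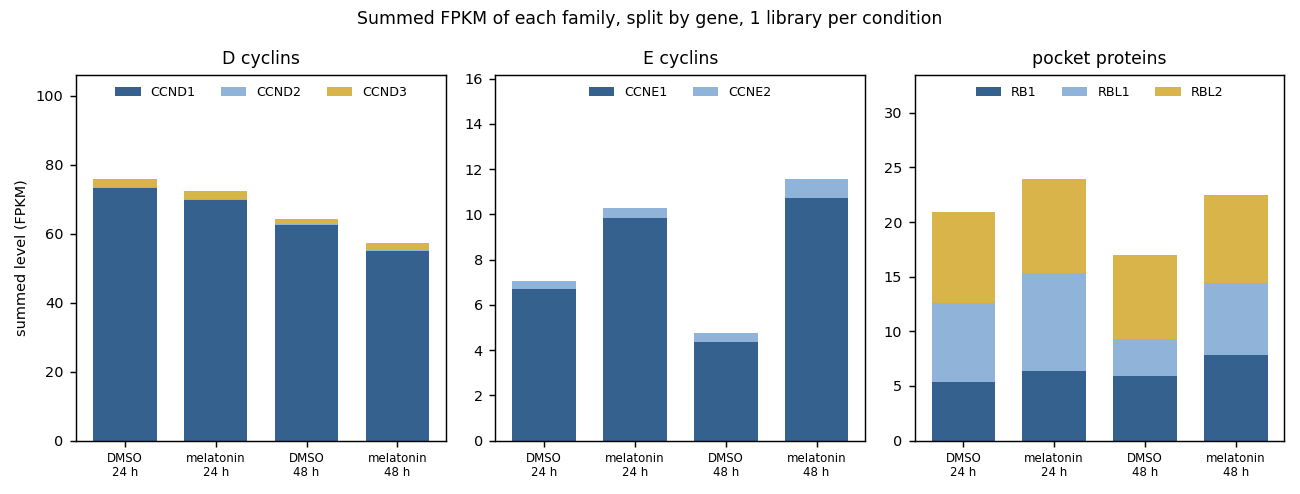
Bars give the summed FPKM of the D cyclins, the E cyclins and the pocket protein genes in each library, split by gene, on linear axes from 0. *CCND1* and *CCNE1* fill most of their bars in every library, whereas the pocket protein bar is shortest with DMSO at 48 h, at 17.0 FPKM, where *RBL1* takes 20.0% of it.

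*CDKN1B*, for p27 (ENSG00000111276, chromosome 12, 12715058 to 12722371), had 21.0 FPKM with DMSO at 24 h against 25.3 with melatonin, and 25.0 and 20.4 at 48 h. On the deposited scale the libraries paired crosswise: DMSO 24 h overlapped melatonin 48 h, and melatonin 24 h overlapped DMSO 48 h. The ratio of melatonin to DMSO was above 1 at 24 h, 1.20 (1.11 to 1.30) on 1440 and 1085 reads, and below 1 at 48 h, 0.816 (0.757 to 0.879) on 1274 and 1542 reads. Over time the ratio was 1.19 (1.10 to 1.29) in the DMSO cultures and 0.808 (0.749 to 0.872) in those with melatonin, and after rescaling to TPM the latter held 1. All 4 differences were small on the deposited scale, with a highest over lowest level of 1.24-fold. On the TPM scale the interval was 1.56 to 1.83 for 48 h over 24 h with DMSO. For melatonin over DMSO at 24 h it was 1.25 to 1.47 on that scale. The level of *CCNE1* over *CDKN1B*, the cyclin against the inhibitor of its kinase, was 0.319 and 0.390 at 24 h and 0.174 and 0.526 at 48 h with DMSO and melatonin, a ratio within a library that no rescaling changes.

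*CDKN2C*, for p18 (ENSG00000123080, chromosome 1, 50960745 to 50974633), had the widest range of the members, 3.90-fold. It had 6.93 and 8.08 FPKM with DMSO and melatonin at 24 h, and 2.08 and 4.72 at 48 h, on 422, 544, 151 and 348 reads. The 24 h libraries overlapped and were the highest, and DMSO at 48 h was the lowest. Melatonin over DMSO was 1.17 (1.03 to 1.33) at 24 h and 2.28 (1.88 to 2.77) at 48 h. The log2 fold change at 48 h was 0.90, short of 2-fold on the log2(FPKM + 1) scale, which understates the change of low genes, and it was past 2-fold with a pseudocount of 0.1 (1.15) and on the TPM scale (1.02). Between the DMSO libraries its ratio of 48 h to 24 h was 0.300 (0.247 to 0.362), a log2 fold change of -1.37, and 98.4% of all tested genes had a higher value. With melatonin the same ratio was 0.584 (0.509 to 0.670), and both stayed below 1 after rescaling to TPM. The level of *CCND1* over *CDKN2C* was 10.6 and 8.63 at 24 h and 30.1 and 11.7 at 48 h with DMSO and melatonin.

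*RB1*, the retinoblastoma gene (ENSG00000139687, chromosome 13, 48303751 to 48481986), had 5.39 and 6.38 FPKM with DMSO and melatonin at 24 h, and 5.87 and 7.79 at 48 h. The melatonin 48 h library was above the other three, in which each overlapped its neighbour. The ratio of melatonin to DMSO was 1.18 (1.06 to 1.32) at 24 h, on 798 and 610 reads, and 1.33 (1.21 to 1.46) at 48 h, on 1067 and 794 reads. *LPAR6*, which lies within *RB1* on the opposite strand, had 351, 368, 1053 and 672 reads, and its part in the reads assigned to *RB1* was not tested. Over time the *RB1* ratio was 1.09 (0.979 to 1.21) with DMSO, which holds 1 on the deposited scale and not on the TPM scale, and 1.22 (1.11 to 1.34) with melatonin.

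*RBL1*, for p107 (ENSG00000080839, chromosome 20, 36996349 to 37095995, minus strand), whose promoter letters are shown above, had 7.24 and 8.93 FPKM with DMSO and melatonin at 24 h, and 3.41 and 6.63 at 48 h. Melatonin 24 h was the highest and DMSO 48 h the lowest, with DMSO 24 h and melatonin 48 h overlapping between them. Its melatonin to DMSO ratio was 1.23 (1.13 to 1.35) at 24 h, on 1079 and 791 reads, and 1.94 (1.73 to 2.18) at 48 h, on 876 and 445 reads, or 0.79 on the log2 scale. The ratio of 48 h to 24 h was 0.471 (0.418 to 0.530) in the DMSO cultures and 0.742 (0.678 to 0.811) in those with melatonin, both below 1 on the TPM scale too.

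*RBL2*, for p130 (ENSG00000103479, chromosome 16, 53433977 to 53491649), the pocket protein that is bound to E2F4 in resting cells, had 8.33 and 8.62 FPKM with DMSO and melatonin at 24 h, and 7.74 and 8.07 at 48 h, on 1119 to 1311 reads. All neighbours in this order overlapped. Its ratio with melatonin was 1.04 (0.955 to 1.12) at 24 h and 1.04 (0.964 to 1.13) at 48 h, so that neither interval went below 0.955 or above 1.13 on the deposited scale. On the TPM scale the interval was above 1 at 24 h and in both comparisons over time, and without mitochondrial reads it was above 1 at 48 h. The overlapping opposite-strand gene *AKTIP* had 265 to 498 reads. The level of *RBL1* over *RBL2* was 0.869 and 1.04 at 24 h and 0.440 and 0.821 at 48 h with DMSO and melatonin. *RB1* made up 25.7% and 26.6% of the summed pocket protein FPKM at 24 h and 34.5% and 34.6% at 48 h, *RBL1* 34.5%, 37.3%, 20.0% and 29.5%, and *RBL2* 39.7%, 36.0%, 45.5% and 35.9% (24 h before 48 h, and DMSO before melatonin at each time). Their sum was 21.0, 23.9, 17.0 and 22.5 FPKM.

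*CCNG2* (ENSG00000138764, chromosome 4, 77157151 to 77433388) had 1.47 FPKM with DMSO at 24 h against 2.10 with melatonin, and 2.20 and 2.13 at 48 h, on 202, 318, 360 and 353 reads. The DMSO 24 h library was the lowest, and the other three overlapped. The ratio of melatonin to DMSO was 1.42 (1.19 to 1.71) at 24 h and 0.968 (0.834 to 1.12) at 48 h. Between the DMSO libraries its level was 1.49-fold higher at 48 h (1.25 to 1.78), the largest rise of a member over time with DMSO, and with melatonin the ratio of 1.01 (0.869 to 1.18) held 1, though not on the TPM scale.

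**Figure D3:**
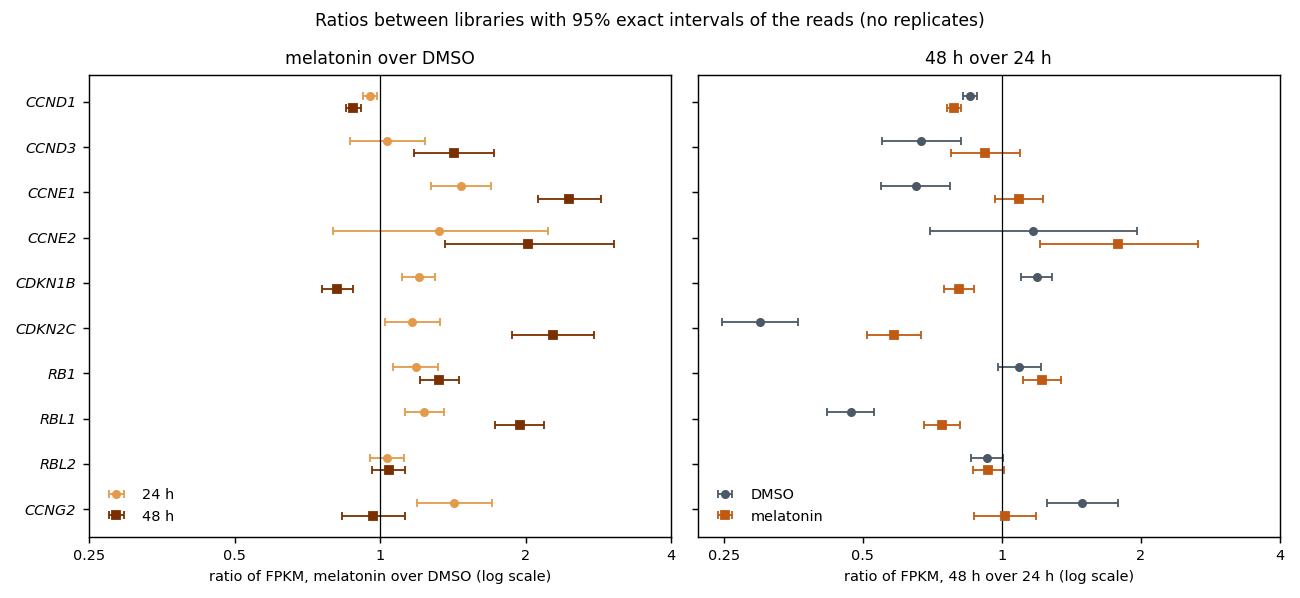
Points give, on log axes, the ratio of melatonin to DMSO at 24 h and 48 h (left) and of 48 h to 24 h with DMSO and with melatonin (right) for each gene, with 95% exact intervals of the reads. On the left *CCNE1*, *CDKN2C* and *RBL1* lie farthest to the right at 48 h, at 2.46, 2.28 and 1.94 (with *CCNE2* at 2.03 on few reads), and *CDKN1B* lies on opposite sides of 1 at the 2 times.

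Counted over all tested genes, the members were read against the same rules. The filter of FPKM 1 or more, in at least 1 library of the pair, kept 9 of the 10 members, and a gene was called changed at 2-fold on the log2(FPKM + 1) scale. At 24 h, 0 of 9 members changed with melatonin, beside 4.35% of 13582 genes and 0.571% of the protein-coding genes with at least 50 reads. The ratio interval lay above 1 for 6 members and below 1 for 1, beside 28.2% and 22.4% of all genes. Among the protein-coding genes with at least 50 reads the shares were 33.7% and 22.9%. The member median log2 fold change was 0.21, that of all tested genes 0.02. On the TPM scale the split was 8 above and 0 below, but 81.3% of all intervals apart from 1 then lay above it, against 55.7% on the deposited scale.

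At 48 h, 1 of 9 members changed with melatonin, *CCNE1*, beside 5.72% of 13805 genes and 2.2% of the protein-coding genes. The interval was above 1 for 5 members (*CCND3*, *CCNE1*, *CDKN2C*, *RB1* and *RBL1*) and below 1 for 2 (*CCND1* and *CDKN1B*), beside 29.1% and 33.1% of all genes, with the same split of members on the TPM scale. Among the protein-coding genes with at least 50 reads, 33.9% had an interval above 1 and 35.5% below. The member median was 0.32, that of all tested genes -0.02.

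Between the DMSO libraries, 1 of 9 members changed from 24 h to 48 h, *CDKN2C*, beside 7.74% of 13854 genes and 4.09% of the protein-coding genes. Among the protein-coding genes with at least 50 reads, the ratio interval was below 1 for 37.1% and above 1 for 34.9%. It was below 1 for 5 members and above 1 for 2 (*CDKN1B* and *CCNG2*), beside 32.1% and 32.5% of all genes. This split turned on the TPM scale to 2 below (*CDKN2C* and *RBL1*) and 5 above, where 86.9% of all intervals apart from 1 lay above it, against 50.3%. Between the melatonin libraries, 0 of 9 members changed, beside 4.15% of 13489 genes and 0.818% of the protein-coding genes. The interval was below 1 for 4 and above 1 for 1 (*RB1*), beside 32.8% and 22.4% of all genes, and 3 below and 4 above on the TPM scale, where 80.6% of all such intervals lay above 1 against 40.7%. Among the protein-coding genes with at least 50 reads, 38.1% had an interval below 1 and 23.1% above on the deposited scale. The member medians were -0.23 with DMSO and -0.09 with melatonin, beside 0.00 and -0.04 over all tested genes.

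Whether the difference between melatonin and DMSO was itself different at 48 h and 24 h was read from the ratio of the 2 ratios, an added value with an exact interval for counting error. It was computed for the members only, so no share over all genes stands beside these counts, and whether they are unusual was not tested. It was above 1 for 4 members: *CDKN2C* at 1.95 (1.54 to 2.47), *CCNE1* at 1.68 (1.36 to 2.07), *RBL1* at 1.57 (1.36 to 1.83) and *CCND3* at 1.37 (1.06 to 1.79), the last of which held 1 on the TPM scale. It was below 1 for 3 members: *CDKN1B* at 0.679 (0.609 to 0.758), *CCNG2* at 0.680 (0.537 to 0.861) and *CCND1* at 0.925 (0.881 to 0.971), the last of which held 1 without mitochondrial reads, at 0.967 (0.921 to 1.02). *RB1*, *CCNE2* and *RBL2* held 1, but *RBL2* fell below it on the TPM scale, and *RB1* lay above it without mitochondrial reads, at 1.17 (1.02 to 1.35). All 4 members above 1 also had a lower DMSO level at 48 h than at 24 h on the deposited scale, and both quantities share the DMSO libraries.

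The rest of the G1 pathway was described by lists of other genes, each with its counts at 48 h. Over all tested genes at 48 h, 29.1% had an interval above 1 with melatonin, 33.1% had one below, and 5.72% changed 2-fold. Of the 8 S phase genes bound by E2F, all had an interval above 1 with melatonin, and 2 changed: *CDC6*, a replication licensing factor, from 4.23 FPKM with DMSO to 10.1 (log2 fold change 1.09), and *TK1*, thymidine kinase, from 16.5 to 37.4 (1.13). On the TPM scale 4 of the 8 passed 2-fold, and 4 also did without mitochondrial reads. Their median was 0.89, while at 24 h it was 0.06, with 2 intervals above 1 and 1 below, beside 28.2% and 22.4% of all tested genes. Between the DMSO libraries 7 of these 8 genes were lower by at least 2-fold at 48 h, with a median of -1.52 (6 of 8 and -1.13 on the TPM scale), and with melatonin 0 of 8 were, with a median of -0.57. Over all tested genes 4.24% were lower by at least 2-fold with DMSO and 1.71% with melatonin, on the deposited scale. Among the members, *CDKN2C*, *RBL1*, *CCNE1* and *CCND3* also had their lowest level with DMSO at 48 h on the deposited scale, and so did *RBL2* within counting error. On the TPM scale the interval for 48 h over 24 h with DMSO held 1 for *CCNE1* and *CCND3*.

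Among the 10 E2F and DP factors, 4 had an interval above 1 at 48 h, 2 below and 4 holding 1, with a median of 0.04. The shares over all tested genes were 29.1% above and 33.1% below. *E2F1*, an activator released by phosphorylated pocket proteins, changed from 17.2 FPKM with DMSO to 70.0 with melatonin, a ratio of 4.07 (3.79 to 4.37), after 31.5 and 50.2 at 24 h. *E2F2*, a second activator, and *E2F7*, a repressor, were 0.83 and 0.80 higher at 48 h on the log2(FPKM + 1) scale, short of 2-fold. Their ratios of FPKM were past 2-fold, at 2.52 (2.04 to 3.12) and 2.66 (2.13 to 3.33). The interval of *E2F1* lay above those of *RBL1*, *RB1* and *RBL2* given before.

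Of 5 other CDK inhibitors, 4 were tested at 48 h, with 2 intervals above 1 and 2 below, beside 29.1% and 33.1% of all tested genes. *CDKN1A*, for p21, a p53 target that inhibits cyclin E with CDK2 as p27 does, was lower with melatonin, at 26.6 against 60.3 FPKM at 48 h (log2 fold change -1.15) and at 16.2 against 25.3 at 24 h (-0.61). Its DMSO level was higher at 48 h than at 24 h, by 1.22 on the log2 scale, against 0.24 for *CDKN1B* and -1.37 for *CDKN2C*. *CDKN2B* and *CDKN2D*, close relatives of *CDKN2C*, were 0.40 and 0.33 higher at 48 h, the latter holding 1 on the TPM scale. *CDKN1C* had 0 reads in every library. Of the 5 G1 kinases and remaining cyclins, 4 were tested and none changed 2-fold, with 2 intervals above 1 and 1 below. *CDK2* had a log2 fold change of 0.50, *CCNG1* 0.24 and *CDK6* -0.18 at 48 h.

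None of the 7 ubiquitin ligase subunits that act on G1 regulators changed at 48 h. The interval was above 1 for 3 and below 1 for 0, beside 29.1% and 33.1% of all tested genes. These 3 were *CKS1B* at 0.50, *SKP2* at 0.47 and *AMBRA1* at 0.11 on the log2 scale, the last holding 1 on the TPM scale. *SKP2* and *CKS1B* form the receptor for p27, and *AMBRA1* is the receptor for D-type cyclins. Of the 5 subunits of the MuvB core, with which *RBL1* and *RBL2* form the DREAM repressor, 4 were tested and 0 changed. Their intervals were above 1 for 2 and below 1 for 1, with *LIN54* at 0.51, *RBBP4* at -0.34 and *LIN52* at 0.29. Of the 3 FOXO factors, 1 had an interval above 1 and 2 below, with *FOXO4* at -0.92, *FOXO1* at 0.45 and *FOXO3* at -0.24. The ratio of FPKM of *FOXO4* was 0.483 (0.428 to 0.546), and its log2 fold change passed 2-fold after rescaling to TPM.

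**Figure D4:**
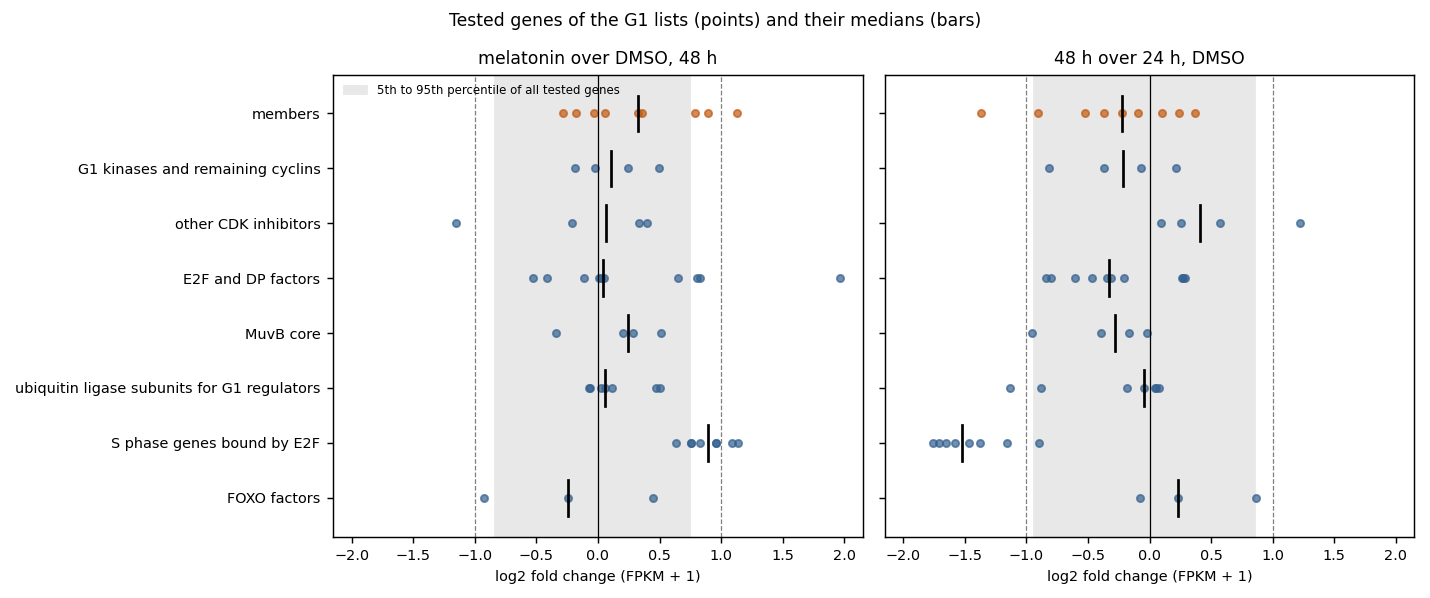
Points give the log2 fold change (FPKM + 1) of each tested gene of the members and the pathway lists for melatonin over DMSO at 48 h (left) and for 48 h over 24 h with DMSO (right), black bars give the list median, dashed lines 2-fold, and the grey band runs from the 5th to the 95th percentile of all tested genes. The S phase genes lie together, at a median of 0.89 on the left and -1.52 on the right, whereas the members spread from -0.28 to 1.13 on the left.

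As references for level, *TBP*, a general transcription factor, had 9.73 and 8.61 FPKM at 24 h and 11.3 and 10.9 at 48 h with DMSO and melatonin. *GAPDH*, a glycolytic enzyme, had 593, 485, 336 and 292, and *ACTB*, for beta-actin, 396, 399, 303 and 321, in the same order. These genes differed among the libraries too, *GAPDH* by more than *CCND1*. In *CCNE1*, *CDKN2C* and *RBL1* the 48 h difference between melatonin and DMSO kept its direction and an interval above 1 under every scale tried, which were the deposited FPKM, TPM and the sum of reads with and without mitochondrial genes.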

How the data were processed

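The authors purified polyadenylated RNA and, by the study's methods, mapped paired reads to hg38 with MapSplice and took expression from Cufflinks. The submitters' processing notes name Bowtie2 2.0.6, TopHat2 2.0.9, Cufflinks 2.1.1 and Cuffdiff 2.1.1 instead of MapSplice, with no role for each. The authors deposited FPKM per Ensembl gene for 4 libraries, with the gene length in bp. Strand of counting, depth and the library size in the denominator are not given in the sources used here.

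Multiplied by length, 100% of the FPKM above 0 were whole multiples of 1 step (tolerance 0.1 of a read), so reads were recovered; the implied library sizes were 18357838, 20283332, 21930408 and 22205042 (DMSO and melatonin at 24 h, then at 48 h). Fold changes were log2((FPKM + 1)/(FPKM + 1)), which understates low genes. Tested genes had FPKM 1 or more in at least 1 library of a pair, and 2-fold was called changed. Level intervals were exact Poisson, and ratio intervals exact Clopper-Pearson (95%), scaled by the implied library sizes; they compare libraries, not conditions. The members and gene lists were chosen with earlier results of these data known. Named genes were all members, list genes changed 2-fold with melatonin, up to 3 of a list in all by the largest log2 fold change at 48 h, overlapping genes, and *TBP*, *GAPDH* and *ACTB*. *CDKN1C*, *CCND2* and the cell type markers were named outside this rule, after their values were seen.

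Alternatives were a pseudocount of 0.1, no filter or a minimum FPKM of 5, a 1.5-fold threshold, a 99% interval, centring on the median, TPM, library sizes as the sum of reads with and without mitochondrial genes, and protein-coding genes with at least 50 reads. Added after seeing the data were the wider E2F letters, the ratio of ratios, and the lists and ratios of ratios on the other scales. Promoters came from RefSeq (GRCh38.p14), with windows for 8 of 10 members; *CCND1* and *CCNE2* had none. Protein features were not computed. The scripts were tested on simulated data. Python 3.11.15, numpy 2.4.6, pandas 2.3.3, scipy 1.17.1 and matplotlib 3.10.9 were used.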

Additional observations from a re-analysis of the deposited data

Results flagged for a closer look

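The difference between melatonin and DMSO had opposite signs at the 2 times in 2 members. The share of all genes with opposite signs was not computed. For *CDKN1B* the log2 fold change was 0.25 at 24 h and -0.28 at 48 h, and both ratio intervals were apart from 1. For *CCNG2* it was 0.33 at 24 h and -0.03 at 48 h, and the 48 h interval held 1; with the library size taken without mitochondrial genes the 48 h value was 0.02, so that the signs were no longer opposite. With 1 library per condition the difference between the times was not tested against replicates. The ratio of the 48 h ratio to the 24 h ratio was 0.679 (0.609 to 0.758) for *CDKN1B* and 0.680 (0.537 to 0.861) for *CCNG2*, intervals that cover counting error only.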

How the results depend on the processing

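Every condition has 1 library, so no replicate could be left out. No paired analysis was possible because the groups compared share 1 replicate number at most. Of the member log2 fold changes with an interval apart from 1, 2 reversed, both on the TPM scale and both of *CCND1*: to 0.10 for melatonin over DMSO at 24 h and to 0.27 for 48 h over 24 h with DMSO. Signs also turned in 7 values of 3 members whose reported interval held 1: *RBL2* over time, to 0.38 (DMSO) and 0.17 (melatonin) on the TPM scale, with intervals then above 1, and to 0.05 and 0.03 with the sum of reads, *CCND3* over time with melatonin, to 0.13 and 0.01 on those scales, and *CCNG2* at 48 h, to 0.02 without mitochondrial genes. The count of members changed 2-fold at 48 h with melatonin went from 1 to 2 with a pseudocount of 0.1 or on the TPM scale (*CCNE1* and *CDKN2C*) and to 3 at a 1.5-fold threshold. For 48 h over 24 h with DMSO it went from 1 to 2 with a pseudocount of 0.1 or a 1.5-fold threshold, and with melatonin from 0 to 1 at 1.5-fold. The counts of members with an interval apart from 1 stayed within 1.5 times of the reported ones under each alternative. Of 40 member log2 fold changes per setting, 27 moved beyond their counting error on the TPM scale, besides the 2 that reversed. The count was 10 with the sum of reads, 7 with a pseudocount of 0.1, 2 without mitochondrial genes and 0 after centring. Over all genes the count of 2-fold changes lay between 63 and 1208 under the alternatives at 24 h with melatonin, against 591, and between 248 and 1672 at 48 h, against 789. Over time it lay between 457 and 2518 with DMSO, against 1072, and between 91 and 1160 with melatonin, against 560. The share of these that were higher moved on the TPM scale from 45.2% to 84.2% with DMSO and from 58.9% to 76.5% with melatonin. Depth limits *CCNE2*, with 28 to 80 reads, and *CCND3* and *CCNG2*, with 188 to 360, more than the other members.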
